A study of Arabidopsis thaliana with 8 samples.

Results

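The genes that remove and that maintain DNA methylation were followed in mRNA-seq of Arabidopsis endosperm, the nutritive tissue of the seed that inherits genomes from both parents. The 10 genes were taken by their locus identifiers from the deposited expression tables, which list 37329 genes. They were 4 DNA demethylase genes (ROS1, DME, DML2 and DML3) and 6 maintenance genes (MET1, CMT2, CMT3, DDM1, VIM1 and KYP). All 10 were present in each of the 3 tables, and 9 reached 1 FPKM (fragments scaled to transcript length and library size) in WT or mutant.

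The tables set WT F1 endosperm of a Ler mother and a Col-0 father against endosperm lacking functional NRPD1, the largest subunit of RNA polymerase IV (Pol IV), from the mother (mat nrpd1+/-), from both parents (nrpd1-/-) or from the father (pat nrpd1+/-). The mutant allele was nrpd1a-4, a T-DNA insertion in Col-0 that had been introgressed into Ler. All seeds were dissected 7 days after pollination, and each library pooled endosperm of many seeds. The sample records name 2 WT, 3 mat nrpd1+/- and 3 nrpd1-/- libraries. The pat nrpd1+/- column of its table is used as the authors' value, and its libraries were not analysed here. Each table holds 1 pooled FPKM value per genotype and gene, so no spread between libraries, no test and no depth per library could be given. Every comparison below is a difference between pooled values.

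As background, methylation of plant cytosines is copied after replication by enzymes that differ in sequence context. MET1, guided by VIM proteins, keeps CG methylation, CMT3 and the histone H3 lysine 9 methyltransferase KYP reinforce each other at CHG sites, CMT2 methylates CHH sites in heterochromatin, and the remodeller DDM1 gives these enzymes access to nucleosomal DNA. The demethylases are glycosylases that excise 5-methylcytosine. DME acts in the central cell before fertilization and leaves the maternal endosperm genome hypomethylated, whereas ROS1 opposes RNA-directed DNA methylation, the pathway that Pol IV feeds, in most tissues, and ROS1 transcription itself depends on methylation next to its promoter.

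The upstream sequences of ROS1 and MET1 are shown because the levels of this pair are compared directly below. Both are the 250 bases before the annotated gene start in the Col-0 reference (RefSeq TAIR10.1), read 5' to 3' on the strand of the gene, with every CG dinucleotide in capitals.
ROS1: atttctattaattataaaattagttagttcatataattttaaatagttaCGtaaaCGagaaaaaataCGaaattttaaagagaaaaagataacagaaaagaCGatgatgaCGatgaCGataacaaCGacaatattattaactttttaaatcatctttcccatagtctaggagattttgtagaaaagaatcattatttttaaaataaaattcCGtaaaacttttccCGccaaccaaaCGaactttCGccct
MET1: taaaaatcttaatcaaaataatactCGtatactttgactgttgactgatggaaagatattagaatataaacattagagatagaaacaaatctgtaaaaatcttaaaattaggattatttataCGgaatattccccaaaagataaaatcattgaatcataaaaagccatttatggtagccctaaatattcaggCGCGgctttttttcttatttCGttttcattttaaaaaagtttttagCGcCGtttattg
The ROS1 window lies at chr2:15314808-15315057 on the minus strand and holds 11 CG dinucleotides. The MET1 window lies at chr5:19931864-19932113 on the plus strand and holds 7. The median over the windows of 27443 protein-coding genes was 5, with quartiles of 3 and 7. The E2F-type octamers TTTCCCGC, TTTGGCGC, TTTCGCGC and TTTGCCGC were also searched on both strands of these windows. ROS1 held TTTCCCGC, 30 to 23 bases upstream of its start, and none of the other 9 genes held a match. A match occurred in 1.41% of all protein-coding windows and in 5 of 10 replication genes. These are letter matches only.

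ROS1 (AT2G36490, minus strand of chromosome 2, 15307907 to 15314807, 21 exons) was the most abundant of the 10 transcripts in 5 of the 6 value columns. DME lies on chromosome 5 (AT5G04560, 1309099 to 1318520), DML2 on chromosome 3 (AT3G10010, 3081735 to 3088550) and DML3 on chromosome 4 (AT4G34060, 16313366 to 16319426). MET1 (AT5G49160, 19932114 to 19938470), DDM1 (AT5G66750, 26648897 to 26653191) and KYP (AT5G13960, 4501362 to 4506250) lie on chromosome 5. CMT2 lies on chromosome 4 (AT4G19020, 10414428 to 10421265), and CMT3 (AT1G69770, 26248118 to 26253687) and VIM1 (AT1G57820, 21413981 to 21418115) lie on chromosome 1. KYP shares its deposited locus with a gene on the opposite strand, and VIM1 belongs to a family of similar genes. How reads that fit more than 1 gene were counted is not given in the sources used here, so these 2 values are less certain.

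ROS1, DME, CMT3 and VIM1 fall in the 12 deposited regions where the Ler nrpd1 line still carried Col-0 sequence. In mat nrpd1+/- and nrpd1-/- endosperm their maternal copies were thus Col-0 copies, and parental origin and genotype cannot be told apart for these 4 genes. Medians over all genes were close inside and outside the regions. Single genes can differ in either direction around such a median, so it does not bear on these 4 genes. The median log2 ratio of mutant over WT was -0.06 inside and -0.09 outside the regions in mat nrpd1+/-, 0.05 and -0.01 in nrpd1-/-, and 0.06 and 0.05 in pat nrpd1+/-.

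NRPD1 itself stood at 2.28 FPKM in WT and 2.08 in mat nrpd1+/-, at 4.34 and 2.08 in nrpd1-/-, and at 2.01 and 0.845 in pat nrpd1+/-. The transcript was therefore still measured in the homozygous mutant at 48.0% of the WT value. A T-DNA allele can leave parts of a transcript, so this level does not check the labels. NRPD1 also lies in a residual Col-0 region. Its transcript is long, at 5263 nt. The log2 ratios of NRPD1 were -0.12, -1.03 and -1.16 in mat nrpd1+/-, nrpd1-/- and pat nrpd1+/-. Genes over 5000 nt had medians of 0.995, -0.55 and -1.03, so the pat nrpd1+/- value was close to that of other long transcripts.

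A pair of yardsticks stands beside all that follows. The first is the WT level itself. The mat nrpd1+/- and pat nrpd1+/- tables carry the same WT values apart from a constant factor (SD of the log2 ratio 0.0061 over 13614 genes), so these 2 comparisons share their controls. The WT values of the nrpd1-/- table were different, and 32.2% of 12672 genes were at least 2-fold apart between the 2 sets of WT values once the sets were put on a common median. The second is transcript length. Between 4000 and 5000 nt the median log2 ratios of mat nrpd1+/-, nrpd1-/- and pat nrpd1+/- were 0.59, -0.44 and -1.04, and from 500 to 1000 nt they were -0.69, 0.39 and 0.53. The set of WT values in the nrpd1-/- table was likewise higher for genes of 4000 to 5000 nt, by a median log2 of 1.27.

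The 10 genes have long transcripts, from 2433 nt (VIM1) to 6963 nt (DME). ROS1 (4827 nt), MET1 (5062 nt), DML2 (4393 nt) and CMT2 (4259 nt) also exceed 4000 nt. Each log2 ratio below, computed with 0.1 FPKM added to both values, is therefore accompanied by the median of the 200 genes nearest in transcript length. The part of length in the results was not tested, but the ratio less that median is given. After this subtraction the 2 sets of WT values differed by -0.44 (DDM1) to 0.60 (DME) on the log2 scale over the 9 measured genes. Before it, they differed by 0.07 (DDM1) to 2.35 (DME), and 5 of the 9 were at least 2-fold apart. Over 12588 genes the WT sets still differed after subtraction with an SD of 0.88 on the log2 scale, and 18.6% of genes were at least 2-fold apart.

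**Figure D1:**
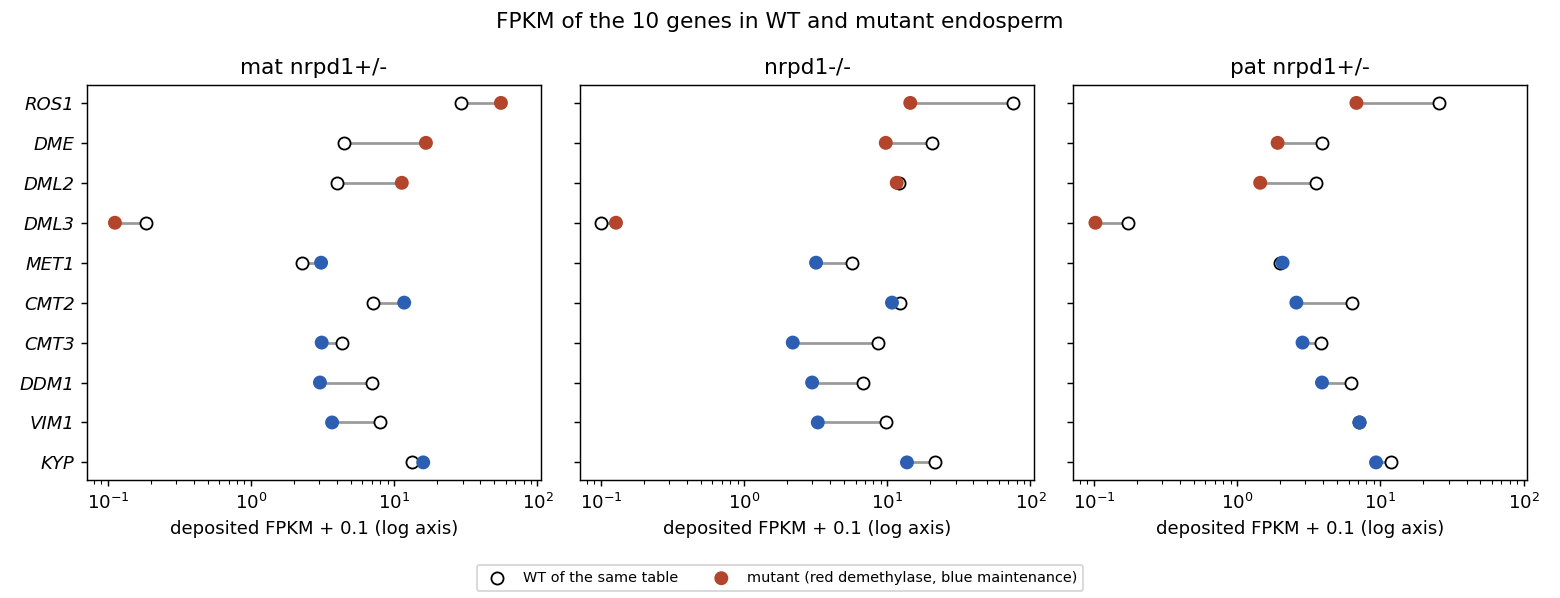
Deposited FPKM plus 0.1 (log axis) of the 10 genes in WT (open circles) and mutant (filled circles; red for demethylase, blue for maintenance genes), 1 panel per table and 1 pooled value per point. ROS1 was above WT in mat nrpd1+/- (29.0 to 55.5 FPKM) and below WT in nrpd1-/- (75.6 to 14.4) and pat nrpd1+/- (25.7 to 6.71), and DML3 stayed under 0.1 FPKM throughout.

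In mat nrpd1+/- endosperm, DME and DML2 were at least 2-fold higher than WT, DDM1 and VIM1 were at least 2-fold lower, and the other 5 measured genes, ROS1 among them, lay within 2-fold. Over all 18771 genes at or above 1 FPKM in either genotype, 14.6% were at least 2-fold higher and 17.5% at least 2-fold lower. The 2 of 9 genes in each direction are close to those shares, and 24.5% of genes of 4000 to 5000 nt and 49.7% of longer genes were at least 2-fold higher. In nrpd1-/- endosperm none of the 9 was at least 2-fold higher and 5 were at least 2-fold lower (ROS1, DME, CMT3, DDM1 and VIM1), where 12.2% of 18066 genes were higher and 10.7% lower. Of these 5, all but DDM1 lie in residual Col-0 regions, and without the genes of those regions 1 was lower. In pat nrpd1+/- none was higher and 4 were lower (ROS1, DME, DML2 and CMT2), where 5.08% of 17906 genes were higher and 7.62% lower. Among genes of 4000 to 5000 nt, however, 54.1% were at least 2-fold lower in pat nrpd1+/-, and these 4 genes all exceed 4000 nt.

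With the length median subtracted, the sets changed. In mat nrpd1+/- none of the 9 genes remained 2-fold higher and DDM1 and VIM1 remained 2-fold lower, against 15.5% higher and 12.5% lower of all genes. In nrpd1-/- ROS1, CMT3 and VIM1 remained 2-fold lower, DDM1 came to -0.998 on the log2 scale and none was higher, against 9.79% lower and 11.7% higher. In pat nrpd1+/- none was 2-fold lower and MET1 alone was 2-fold higher, against 3.78% lower and 3.54% higher.

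**Figure D2:**
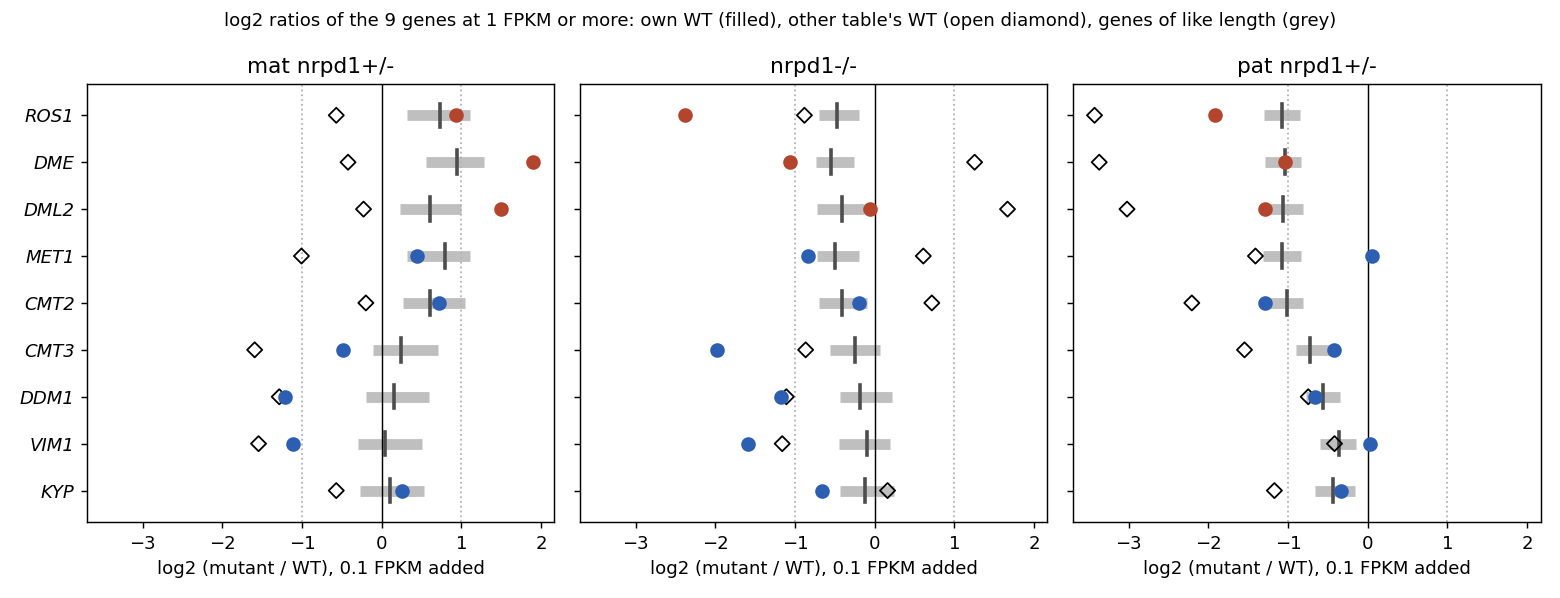
log2 ratio of mutant over WT (0.1 FPKM added) for the 9 measured genes in each comparison. Filled circles use the WT values of the same table, open diamonds the rescaled WT values of the other set, grey bars and ticks give the quartiles and the median of the 200 genes of nearest transcript length, and dotted lines mark 2-fold. DDM1 and VIM1 lay beyond 2-fold lower with either WT set in mat nrpd1+/- and nrpd1-/-, while DME and DML2 crossed 0 with the WT set in both.

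ROS1 gave the lowest ratio of the 9 in nrpd1-/- and in pat nrpd1+/-. In the nrpd1-/- table ROS1 stood at 75.6 FPKM in WT and 14.4 in the mutant, a log2 ratio of -2.39 (5.23-fold lower) where genes of like length had a median of -0.48. In the pat nrpd1+/- table it stood at 25.7 and 6.71 FPKM, a log2 ratio of -1.92 (3.78-fold lower), where genes of like length were at -1.07. ROS1 was thus lower than its length class by 1.91 log2 units in nrpd1-/- and by less, 0.85, in pat nrpd1+/-. In mat nrpd1+/- it went from 29.0 to 55.5 FPKM, a log2 ratio of 0.93 that lay 0.21 above the length median. Set against the other WT values, the ratios were -0.57, -0.88 and -3.43 for mat nrpd1+/-, nrpd1-/- and pat nrpd1+/-. ROS1 was below WT with either WT set in nrpd1-/- and pat nrpd1+/-, whereas the direction in mat nrpd1+/- turned with the WT set.

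MET1 offers a comparison within each column that needs no second library, as its transcript is nearly as long as that of ROS1. This pair was chosen after the values were seen. The FPKM ratio of ROS1 over MET1 was 13.4, 13.5 and 13.5 in the WT columns of the mat nrpd1+/-, nrpd1-/- and pat nrpd1+/- tables, of which the first and last hold the same libraries' values. The mutant values were 18.6 (mat nrpd1+/-), 4.66 (nrpd1-/-) and 3.39 (pat nrpd1+/-). The 2 WT sets, which differed for ROS1 by 1.51 and for MET1 by 1.49 log2 units, thus gave nearly the same ratio, and both mutants with a mutant father were below it. In pat nrpd1+/- this was not particular to ROS1. Over MET1, DME went from 2.02 to 0.919 there, DML2 from 1.81 to 0.682 and CMT2 from 3.27 to 1.26. In nrpd1-/- DME over MET1 went from 3.64 to 3.13, DML2 from 2.15 to 3.74 and CMT2 from 2.19 to 3.47. Both genes contributed in pat nrpd1+/-, since ROS1 lay 0.85 log2 units below its length median and MET1 1.13 above its own. In nrpd1-/- ROS1 lay 1.91 and MET1 0.34 log2 units below.

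DME and DML2 were the genes most above WT in mat nrpd1+/-. DME went from 4.36 to 16.5 FPKM (log2 ratio 1.90, length median 0.95) and DML2, a demethylase related to ROS1, from 3.89 to 11.2 FPKM (1.501, length median 0.60). They exceeded genes of like length by 0.95 and 0.90 log2 units, where the 2 WT sets differed with an SD of 0.88 over all genes after the same subtraction. With the other WT set both ratios were below 0, at -0.42 for DME and -0.23 for DML2. Relative to MET1, DME was at 2.01 in the WT of this table, 3.64 in the other WT set and 5.54 in mat nrpd1+/-, and DML2 was at 1.80, 2.15 and 3.75.

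In nrpd1-/-, DME was at 20.4 FPKM in WT and 9.66 in the mutant (log2 ratio -1.07, length median -0.55), and with the other WT set its ratio was 1.25. DML2 was at 12.04 and 11.5 FPKM (-0.06), and at 1.67 with the other WT set. In pat nrpd1+/-, DME was at 3.84 and 1.82 FPKM and DML2 at 3.44 and 1.35 FPKM. Their log2 ratios of -1.04 and -1.29 lay 0.00086 above and 0.23 below the length medians, so both were close to other long transcripts. DML3 was listed at 0.084 FPKM or less in all 6 columns and could not be compared.

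Summed over the 4 demethylase genes, the level was 37.3 FPKM in WT and 83.2 in mat nrpd1+/-, 108 and 35.6 in nrpd1-/-, and 33.01 and 9.88 in pat nrpd1+/-. ROS1 made up 77.7% of this sum in the WT values of the mat nrpd1+/- table, 70.0% in those of the nrpd1-/- table, 66.7% in mat nrpd1+/- and 67.9% in pat nrpd1+/-. In nrpd1-/- its share was 40.4%, with DML2 at 32.4% and DME at 27.1%. ROS1 was the only demethylase gene of the nrpd1-/- table below WT with either WT set.

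**Figure D3:**
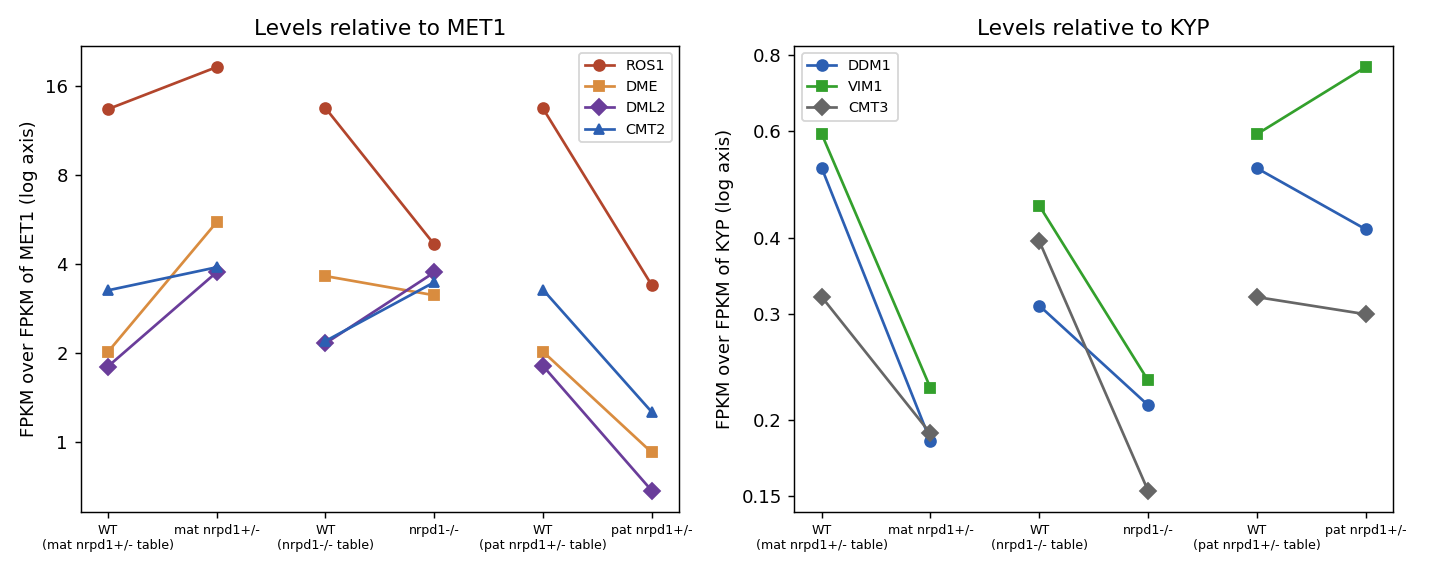
FPKM of 4 long transcripts over that of MET1 (left) and of 3 shorter transcripts over that of KYP (right), log axes, 1 pooled value per point, with each WT column joined to the mutant of its table. ROS1 over MET1 was 13.4 to 13.5 in every WT column and 4.66 and 3.39 in nrpd1-/- and pat nrpd1+/-, and VIM1 over KYP was 0.226 and 0.233 in mat nrpd1+/- and nrpd1-/-. In pat nrpd1+/- DME, DML2 and CMT2 over MET1 were below the WT of that table too.

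Among the maintenance genes, DDM1 and VIM1 were lower in both genotypes with a mutant mother, whichever WT set was used. VIM1, unlike DDM1, lies in a residual Col-0 region. DDM1 went from 6.92 to 2.93 FPKM in mat nrpd1+/- (log2 ratio -1.21, length median 0.16) and from 6.68 to 2.89 in nrpd1-/- (-1.18, length median -0.18). VIM1 went from 7.87 to 3.58 FPKM in mat nrpd1+/- (-1.12, length median 0.04) and from 9.76 to 3.17 in nrpd1-/- (-1.59, length median -0.10). With the other WT set DDM1 was at -1.29 and -1.11 and VIM1 at -1.55 and -1.16. With 1 FPKM added in place of 0.1, VIM1 in mat nrpd1+/- (-0.95) and DDM1 in nrpd1-/- (-0.98) came just inside 2-fold. In pat nrpd1+/- DDM1 was at 6.11 and 3.81 FPKM (-0.66, length median -0.56) and VIM1 at 6.95 and 7.06 (0.02, length median -0.36).

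KYP was the maintenance gene of highest level in all 6 columns, from 9.24 to 21.6 FPKM, and its transcript of 2511 nt is near those of VIM1 and DDM1 (2770 nt). KYP stayed within 2-fold of the WT of its table, with log2 ratios of 0.25, -0.66 and -0.34 in mat nrpd1+/-, nrpd1-/- and pat nrpd1+/-. With the other WT set the last was -1.17. VIM1 over KYP was 0.593 and 0.452 in the 2 WT sets and 0.226, 0.233 and 0.764 in mat nrpd1+/-, nrpd1-/- and pat nrpd1+/-. DDM1 over KYP was 0.521 and 0.309 in WT and 0.185, 0.212 and 0.413 in mat nrpd1+/-, nrpd1-/- and pat nrpd1+/-. Both ratios were below either WT value in the genotypes with a mutant mother. For DDM1 over KYP, however, the 2 WT sets lay further apart than nrpd1-/- lay from the nearer WT value. The pairs with KYP were not set in advance either, and the values of KYP and VIM1 are the less certain ones named above.

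CMT3, the CHG methyltransferase, followed in part. It went from 8.53 to 2.09 FPKM in nrpd1-/- (log2 ratio -1.98, length median -0.25), from 4.24 to 3.01 in mat nrpd1+/- (-0.48, length median 0.24) and from 3.75 to 2.76 in pat nrpd1+/- (-0.43, length median -0.72). With the other WT set these ratios were -0.87, -1.59 and -1.55 in the same order. CMT3 lies in a residual Col-0 region. CMT3 over KYP was 0.320 and 0.395 in the 2 WT sets, and 0.190, 0.153 and 0.299 in mat nrpd1+/-, nrpd1-/- and pat nrpd1+/-.

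MET1 and CMT2 lay within 2-fold in mat nrpd1+/- and nrpd1-/-. MET1 was at 2.17 and 2.98 FPKM in mat nrpd1+/- (log2 ratio 0.45) and at 5.59 and 3.08 FPKM in nrpd1-/- (-0.84). In pat nrpd1+/- it was at 1.90 and 1.98 FPKM, and its log2 ratio of 0.05 lay 1.13 above the median of genes of like length. With the other WT set, MET1 was at -1.01, 0.61 and -1.41 in mat nrpd1+/-, nrpd1-/- and pat nrpd1+/-. CMT2 was at 7.05 and 11.6 FPKM in mat nrpd1+/- (0.71) and at 12.3 and 10.7 in nrpd1-/- (-0.20). The pat nrpd1+/- table had it at 6.23 and 2.49 FPKM (-1.29). Its pat nrpd1+/- ratio was 0.27 below the length median of -1.02.

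**Figure D4:**
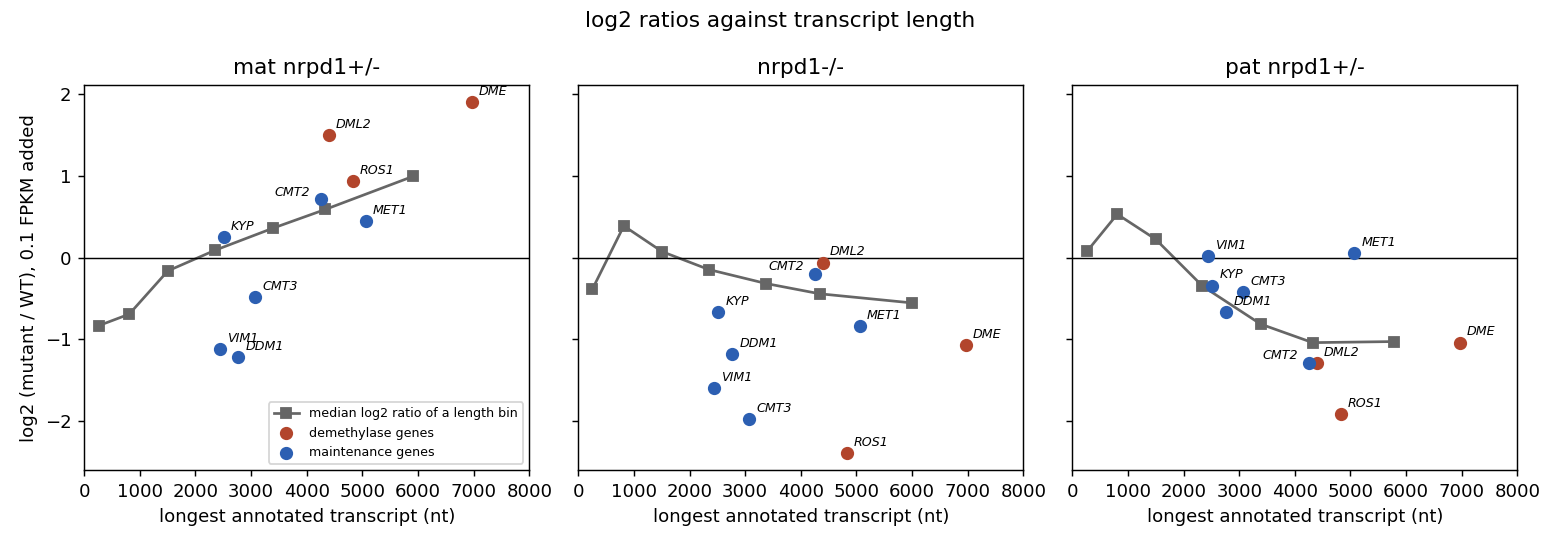
log2 ratio of mutant over WT (0.1 FPKM added) against the longest annotated transcript in nt for the 9 measured genes (red demethylase, blue maintenance), with the median of genes outside the residual Col-0 regions in 7 length bins (grey squares, placed at the median length of the bin). The grey medians above 5000 nt were 0.995 (mat nrpd1+/-), -0.55 (nrpd1-/-) and -1.03 (pat nrpd1+/-), and ROS1 in nrpd1-/- lay 1.91 and DDM1 and VIM1 in mat nrpd1+/- 1.37 and 1.15 log2 units below the medians of genes of their own length.

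The members of the demethylase and maintenance groups had median log2 ratios of 1.501 and -0.11 in mat nrpd1+/-, -1.07 and -1.01 in nrpd1-/- and -1.29 and -0.38 in pat nrpd1+/-. All genes had medians of -0.08, 0.00 and 0.05. After subtraction of the length medians the values were 0.90 and -0.53, -0.52 and -0.77, and -0.23 and 0.20.

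Of 16 paralogs of the methyltransferases and of their readers, 1 was at least 2-fold higher and 1 lower among 13 measured in mat nrpd1+/-, 6 of 14 were lower in nrpd1-/- and 1 of 12 was lower in pat nrpd1+/-. Over all genes 14.6% were higher and 17.5% lower in mat nrpd1+/-, and 10.7% and 7.62% were lower in nrpd1-/- and pat nrpd1+/-. With length medians subtracted, 1, 5 and 0 were lower and 0, 0 and 1 higher. The shares of all genes were then 12.5%, 9.79% and 3.78% lower and 15.5%, 11.7% and 3.54% higher. The furthest in nrpd1-/- were VIM2, a paralog of VIM1 in a residual Col-0 region, at 3.46 and 0.669 FPKM (log2 ratio -2.21), and the MET1 paralogs AT4G08990 (4.87 and 1.003 FPKM, -2.17) and MEE57 (2.60 and 0.582 FPKM, -1.99). With their length medians subtracted these 3 were at -2.12, -1.70 and -1.57. Against the other WT values they were at -1.16, 0.06 and -2.20, so the lower value of AT4G08990 was lost. Of 14 demethylation cofactors, which include the enzymes that finish base excision repair, 2 were at least 2-fold higher in mat nrpd1+/- (1 with length medians subtracted), and none was past 2-fold in nrpd1-/- or pat nrpd1+/-. The 2 cofactors are close to the share of all genes in mat nrpd1+/-, 14.6% (15.5% with length medians subtracted). Past 2-fold in either direction were 22.9% of all genes in nrpd1-/- and 12.7% in pat nrpd1+/-.

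Of 9 heterochromatin partners, 2 were higher and 2 lower in mat nrpd1+/-, 1 was lower in nrpd1-/- and 3 were lower in pat nrpd1+/-. Over all genes the shares were 14.6% higher and 17.5% lower, 10.7% lower and 7.62% lower. With length medians subtracted, 1 was higher and 1 lower in mat nrpd1+/-, 1 was lower in nrpd1-/- and none in pat nrpd1+/-. In mat nrpd1+/- the furthest of all 3 lists were MOM1, a silencing factor (1.37 and 5.11 FPKM, log2 ratio 1.83, length median 0.95), HTA6, a heterochromatic H2A.W histone (189 and 61.8 FPKM, -1.61, length median -0.65) and MORC6, a silencing ATPase (7.39 and 20.5 FPKM, 1.46, length median 0.11). Against the other WT values HTA6 was at -1.13, while MOM1 and MORC6 turned to -0.42 and -0.81. In pat nrpd1+/- they were EDM2, a regulator of heterochromatic introns (-1.18, length median -1.07), DRM3, a partner of the de novo methyltransferase DRM2 (-1.13, length median -0.55) and MORC6 (6.52 and 3.06 FPKM, -1.07, length median -0.49). Against the other WT values these were at -2.67, -1.68 and -3.34.

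Of 7 loci set by methylation or its removal, 4 were measured in mat nrpd1+/-, with 3 at least 2-fold lower, 3 in nrpd1-/-, with 2 lower and 1 higher, and 3 in pat nrpd1+/-, all within 2-fold. Over all genes 17.5% were lower in mat nrpd1+/-, and 10.7% were lower and 12.2% higher in nrpd1-/-. With length medians subtracted, 3 were lower in mat nrpd1+/-, 2 lower and 1 higher in nrpd1-/-, and 1 lower in pat nrpd1+/-. The shares of all genes were then 12.5% lower, 9.79% lower and 11.7% higher, and 3.78% lower. HDG3, a homeobox gene, was at 31.7 and 2.28 FPKM in mat nrpd1+/- (log2 ratio -3.74), 9.93 and 1.14 in nrpd1-/- (-3.02) and 27.9 and 14.4 in pat nrpd1+/- (-0.95), and at -2.20, -4.56 and 0.58 with the other WT set. SDC was at 10.2 and 0.205 FPKM in mat nrpd1+/- and at 0.122 and 2.78 in nrpd1-/-, and both directions turned with the other WT set (0.39 and -1.71). PHE1, in a residual Col-0 region, was at 1.51 and 0.108 FPKM in mat nrpd1+/- (log2 ratio -2.95). Its direction turned too with the other WT set (1.06). MEA and FWA, which DME is known to activate, were under 1 FPKM in all 6 columns. FIS2, in a residual Col-0 region, was at 1.10 and 0.637 FPKM in mat nrpd1+/-, 2.35 and 0.224 in nrpd1-/-, and 0.970 and 0.276 in pat nrpd1+/-, where both values were under 1 FPKM. The log2 ratios of FIS2 were -0.70 in mat nrpd1+/- and -2.92 in nrpd1-/-, and -1.86 and -1.77 with the other WT set.

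Replication genes and tissue markers were read beside these results, and their part in them was not tested. Of 10 replication genes, 4 were at least 2-fold lower in mat nrpd1+/- (median log2 ratio -0.73) and 8 in nrpd1-/- (-1.32), and none in pat nrpd1+/-, where 2 were higher (-0.33). The shares of all genes were 17.5% and 10.7% lower, and 5.08% higher in pat nrpd1+/-. With length medians subtracted, 5 and 6 were lower and none was higher in pat nrpd1+/-. With the other WT set, MCM3, MCM4, MCM7 and RNR1 came past 2-fold lower in mat nrpd1+/- (-1.16, -1.14, -1.06 and -1.64). MCM3, MCM7 and RNR1 came inside 2-fold in nrpd1-/- (-0.37, -0.50 and -0.29). MCM3, MCM4 and RNR1 came past 2-fold lower in pat nrpd1+/- (-1.31, -1.61 and -1.84). The other replication genes kept their calls. DDM1 and VIM1 were 2-fold lower in mat nrpd1+/- and nrpd1-/-. The summed level of 8 seed coat markers was 143 to 216 FPKM in WT and 134 to 196 in the mutants, most of it TT10, MUM4 and BAN. Of the 7 seed coat markers measured, 1, 2 and 1 were at least 2-fold higher in mat nrpd1+/-, nrpd1-/- and pat nrpd1+/-, and 1 was lower in nrpd1-/-. Over all genes 14.6%, 12.2% and 5.08% were higher, and 10.7% were lower in nrpd1-/-. TTG2 went from 1.80 to 12.4 FPKM in mat nrpd1+/- and from 2.09 to 11.8 in nrpd1-/-, and BAN from 8.84 to 30.8 in nrpd1-/-. Both genes lie in residual Col-0 regions. Against the other WT values the log2 ratios of TTG2 were 2.40 and 2.77, and that of BAN was 0.27. The summed level of 7 embryo markers was 543 and 109 FPKM in WT and mat nrpd1+/-, 234 and 92.5 in nrpd1-/-, and 478 and 731 in pat nrpd1+/-, most of it LEC1. At least 2-fold lower were 4 of 4 measured embryo markers in mat nrpd1+/-, 2 of 2 in nrpd1-/- and 0 of 4 in pat nrpd1+/-. The shares of all genes were 17.5%, 10.7% and 7.62%. With the other WT set WOX2 and STM turned in mat nrpd1+/- (0.74 and 0.03), while LEC1 and CUC1 stayed lower (-1.24 and -1.19). That of 8 endosperm markers was 1525 to 4890 FPKM in WT, and 362, 341 and 484 in the mutants. EPR1 carried most of the WT sum and was listed at 0 in mat nrpd1+/- and nrpd1-/-. Without EPR1 the sum was higher than WT in mat nrpd1+/- (268 and 362 FPKM) and nrpd1-/- (213 and 341) and lower in pat nrpd1+/- (236 and 207), with YUC10 at 6.17 and 66.2 FPKM in mat nrpd1+/- and 12.9 and 79.3 in nrpd1-/-. ZOU and SUC5 were present in every column, and IKU2 and MINI3 were at or near 0 throughout. In nrpd1-/- SUC5 went from 133 to 218 FPKM, so YUC10 was not alone in the higher sum, and ZOU went from 67.4 to 43.2. Against the other WT values the nrpd1-/- log2 ratios of SUC5 and ZOU were 0.23 and -0.27. YUC10, ZOU and SUC5 lie in residual Col-0 regions. In bulk endosperm, fewer cells of a type and less RNA per cell cannot be told apart.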

How the data were processed

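Endosperm poly(A) mRNA was sequenced by the authors from libraries made with an ultra-low-input SMARTer kit per the labels, or a Smart-Seq2 protocol per the study's methods. Per the labels and the study's methods, reads were trimmed with Trim Galore and aligned to TAIR10 with TopHat, and the deposited FPKM values are 1 pooled Cuffdiff estimate per genotype and table (version 2.2.1 in the submitters' processing notes; the study's methods give another version), each table normalized on its own. Columns of the authors' own fold changes, statistics, p-values and significance calls were not used. Strand use and the counting of multiply mapped reads are not given in the sources used here.

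From the deposited FPKM, log2((mutant + 0.1)/(WT + 0.1)) was computed for genes with at least 1 FPKM in either genotype, and genes at least 2-fold apart were counted (Python 3, numpy, pandas). With pooled values there is no replicate error, and no test was run. Genes, lists and named-gene rules were chosen with earlier results of these data known. The named genes are NRPD1, all 10 members, the 3 furthest past 2-fold in each table over the paralog, cofactor and heterochromatin lists, and MEA, FIS2 and FWA. Other lists are given by counts, medians and sums, with HDG3, SDC, PHE1, MCM3, MCM4, MCM7, RNR1, TT10, MUM4, BAN, TTG2, LEC1, WOX2, STM, CUC1, EPR1, YUC10, ZOU, SUC5, IKU2 and MINI3 named after their values were seen.

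Transcript lengths and upstream bases came from RefSeq TAIR10.1, whose gene bounds equal the deposited ones for 26789 of 26795 single-gene loci. Deposited starts count from 0 and were raised by 1. Length medians used the 200 genes nearest in length outside the residual Col-0 regions, an alternative added after the values were seen. Functions were checked on simulated data. The design samples carry groups from their titles. The pat nrpd1+/- column has no sample record here and was used as a pooled value.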

Additional observations from a re-analysis of the deposited data

How the results depend on the processing

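No paired analysis was possible because the tables hold 1 pooled value per genotype, and for the same reason no library could be left out. With the rescaled WT values of the other set, the genes at least 2-fold higher and lower were 0 and 4 in mat nrpd1+/-, 2 and 2 in nrpd1-/-, and 7 were lower in pat nrpd1+/-. Shares of all genes were not computed under this setting, so these counts have no background and are not read as a trait of the members. The WT set used here for mat nrpd1+/- and pat nrpd1+/- was higher for genes of 4000 to 5000 nt, by a median log2 of 1.27. Under that setting DME turned to -0.42 in mat nrpd1+/- and 1.25 in nrpd1-/-, DML2 to -0.23 and 1.67, and MET1 to -1.01 in mat nrpd1+/- and -1.41 in pat nrpd1+/-. The median of the demethylase genes turned to -0.42 in mat nrpd1+/- and to 1.25 in nrpd1-/-.

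With the length medians subtracted, an alternative chosen after seeing the data, 0 genes were 2-fold higher in mat nrpd1+/-, 3 were lower in nrpd1-/-, 1 was higher and 0 were lower in pat nrpd1+/-, and DME in pat nrpd1+/- was at 0.00086. With 1 FPKM added, 1 gene was lower in mat nrpd1+/- and 2 in pat nrpd1+/-. At 1.5-fold, 4 genes were higher in mat nrpd1+/-. Without the genes in residual Col-0 regions, 1 was higher and 1 lower in mat nrpd1+/-, 1 was lower in nrpd1-/- and 2 in pat nrpd1+/-. Shares of all genes were not computed with 1 FPKM added, at 1.5-fold or without those regions, so these counts have no background either. Over all settings, 21 of 189 single-gene ratios changed sign, 13 of them among 27 with the other WT set, 6 with the length medians subtracted and 2 on centring. In 7 of the 21 the ratio was past 2-fold before or after. Of the ratios that kept their sign, 13 came inside 2-fold and 5 moved past it. The depth behind each value is unknown, so levels near 1 FPKM have no stated precision.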
